A study of Drosophila melanogaster with 3 samples.

Results

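The binding of Blimp-1 to starts of noncoding RNA genes was described in whole Drosophila melanogaster embryos at 10 to 12 h of development, by chromatin immunoprecipitation followed by sequencing (ChIP-seq). All 3 samples were labelled as biological replicates of 1 group, from a transgenic fly line that stably expresses Blimp-1 fused at its C-terminus to green fluorescent protein (GFP), precipitated with an anti-GFP antibody. No untagged, mutant or untreated group was compared, and whole embryos mix all their cell types. The age comes from the name of the source material, since the entry in the age label itself is not an age at all. Of the 9515 peaks that passed the authors' threshold on the irreproducible discovery rate (IDR), 276 (2.9%) had their summit within 500 bp of an annotated start of a noncoding RNA gene and not within 500 bp of any protein-coding start. They are called noncoding-only promoter peaks. A further 2711 peaks (28.5%) lay within 500 bp of a protein-coding start, and 6528 (68.6%) lay at no start of either kind. Within that list the choice used position alone. The list itself is the strongest 9515 peaks of the pooled list, so every peak in it, of each kind, was already selected for strength and for agreement between replicates.

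Blimp-1 is the fly homologue of PRDM1, a zinc finger transcription factor known mainly as a repressor, and in flies it is known as an ecdysone-inducible factor that sets the timing of ftz-f1 in prepupae and acts in tracheal development. Long noncoding RNAs (lncRNAs) and microRNA precursors are made by RNA polymerase II, transfer RNAs (tRNAs), U6 and 7SK by RNA polymerase III, and most fly small nucleolar RNAs (snoRNAs) are cut from introns of a host transcript. The annotated start of a snoRNA or a microRNA hairpin is therefore usually not the start of the primary transcript. PRDM1 recognises DNA with the core GAAAG, and the forms AGCGAAAG and AGTGAAAG on either strand are called the Blimp-1 element here.

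The element stood within 50 bp of the summit at 22 of the 276 peaks. The 6 stretches that follow are shown because they carry the element at the 3 strongest lncRNA or antisense RNA members that hold it, beside the microRNA gene mir-282, and at 2 tRNA genes. Each runs from 50 bp before to 50 bp after the summit on the dm6 build (RefSeq, Release 6), and capitals mark each element, which reads CTTTCGCT or CTTTCACT where it lies on the other strand.
lncRNA:CR43250 (chr3L:17033452-17033552, plus strand): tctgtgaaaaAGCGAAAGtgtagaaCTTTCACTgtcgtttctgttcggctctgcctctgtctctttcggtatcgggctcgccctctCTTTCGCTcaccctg
asRNA:CR45952 (chr3L:21301914-21302014, plus strand): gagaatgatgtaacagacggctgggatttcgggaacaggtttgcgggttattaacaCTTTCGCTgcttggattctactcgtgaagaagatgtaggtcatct
lncRNA:CR43642 (chr3R:13816119-13816219, plus strand): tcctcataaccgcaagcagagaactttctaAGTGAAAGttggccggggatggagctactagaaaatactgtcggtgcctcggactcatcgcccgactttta
lncRNA:CR43626 (chr3L:3250674-3250774, plus strand): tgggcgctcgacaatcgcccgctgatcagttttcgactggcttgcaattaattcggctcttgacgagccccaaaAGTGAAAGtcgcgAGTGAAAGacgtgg
tRNA:Pro-AGG-1-5 (chr3L:13211063-13211163, plus strand): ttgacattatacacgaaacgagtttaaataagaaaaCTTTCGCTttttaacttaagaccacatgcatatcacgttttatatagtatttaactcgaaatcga
tRNA:Ser-CGA-1-3 (chrX:14103483-14103583, plus strand): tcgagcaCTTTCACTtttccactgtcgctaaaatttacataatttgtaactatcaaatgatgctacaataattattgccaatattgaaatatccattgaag
The CR43250 stretch held 3 elements, the CR43626 stretch held 2 and the others held 1.

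A related word, GAAAGTGA, was also found at several of the strongest members, and those 3 summits are shown with that word in capitals on the same build.
lncRNA:CR45650 (chr3R:24768113-24768213, plus strand): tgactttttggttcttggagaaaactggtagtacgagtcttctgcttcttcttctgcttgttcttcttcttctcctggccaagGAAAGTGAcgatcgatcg
lncRNA:CR44867 (chr2L:15911435-15911535, plus strand): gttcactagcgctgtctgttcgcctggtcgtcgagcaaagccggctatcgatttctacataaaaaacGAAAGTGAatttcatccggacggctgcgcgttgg
lncRNA:CR45615 (chrX:12456061-12456161, plus strand): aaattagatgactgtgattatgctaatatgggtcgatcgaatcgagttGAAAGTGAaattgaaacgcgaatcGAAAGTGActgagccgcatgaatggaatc
GAAAGTGA occurred within 50 bp of 19 member summits (6.88%) and in 1 window of the same length 500 bp to the right (0.362%). Over protein-coding promoter peaks it stood at 3.61% of summits and 0.516% of flanks, and over all 9515 peaks at 5.42% and 0.515%. One or both words were at 35 members (12.7%), at 7.3% of protein-coding promoter peaks and at 10.2% of all peaks, and 6 members had both. Among the 10 strongest members, 5 held one of the words and none held both. Over the 33 members in the strongest 10% of the IDR-thresholded list, the element was at 4 and GAAAGTGA at 4 (12.1% each). No share over other peaks of like strength is given here.

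The 10 strongest noncoding-only peaks stood at lncRNA genes, apart from 1 at a snoRNA gene. Of all 276 members, 78.3% are at lncRNA genes, so this count is near that share. Strength is the authors' signal value, used here only to rank peaks within a list. The first was at CR45650, ranked 31 in the IDR-thresholded list and 20, 55 and 75 in replicates 1, 2 and 3, with its summit 321 bp downstream of the start. CR43250, whose sequence held 3 elements, ranked 39 in the list and 22, 72 and 83 in the replicates. Its summit lay 174 bp downstream of the start and 1422 bp from the nearest protein-coding start, that of Ilp8, which encodes a relaxin-like hormone known to delay metamorphosis. CR44867, antisense within the axon guidance family gene beat-Ib, ranked 40 in the list and 57, 40 and 34 in the replicates. For all 3 genes, the peak stood among the strongest 83 of each replicate.

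The other members of the strongest 10 were snoRNA:Psi18S-1347a and the lncRNA genes CR45938, CR46102, CR44810, CR31840, CR45615 and CR43928, with list ranks from 62 to 160. The snoRNA peak lay 260 bp upstream of Psi18S-1347a, inside pAbp, the gene of the poly(A)-binding protein. It ranked 62 in the list and 46, 75 and 78 in the replicates, and its summit held the element, as CTTTCACT, within 50 bp. CR45938 lies within ftz-f1 on its strand, the nuclear receptor gene named above, and its summit (chr3L, position 18754081) fell 4 bp downstream of the annotated CR45938 start, with list rank 64 and replicate ranks 63, 56 and 69. No element was found within 50 bp of that summit. CR46102, antisense within the lipophorin receptor gene LpR2, ranked 70 in the list and 74, 89 and 63 in the replicates. CR31840 had its summit 10 bp from the start, at list rank 126. Over these 10 peaks the replicate ranks ran from 20 to 221. They lead a list made from these same replicates, so high replicate ranks are no separate support.

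Several lncRNA loci held more than 1 noncoding-only summit. The 276 peaks were nearest to a start of 251 genes, of which 229 had 1 summit, 20 had 2, 1 had 3 and 1 had 4. CR43626 was the gene with 4, at list ranks 428, 3261, 6101 and 8069, along the locus that also holds the hairpin of mir-282. CR44810 had 3, at list ranks 100, 195 and 3397. For these, the nearest protein-coding start was that of slbo, a C/EBP factor needed for border cell migration. Some of these are summits of 1 called region, and each summit is counted here as a peak. The CR43626 summits at ranks 428, 3261 and 8069 share a region, as do the CR44810 summits at ranks 100 and 3397. Both CR44867 summits and both CR43250 summits, named next, also share a region within their pair. Summits close to each other were not equally stable in rank. A second CR44867 summit, at the annotated start itself, ranked 931 in the list but 20282, 541 and 1050 in replicates 1, 2 and 3. A second CR43250 summit, at list rank 8371, ranked 14327 and 4500 in replicates 1 and 2 and had no summit within 100 bp in replicate 3. A summit at CR43642, whose nearest protein-coding start is that of tal-1A at 3060 bp in a locus that encodes small peptides of epidermal development, ranked 344 in the list and 185, 563 and 848 in the replicates.

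By class, 216 of the 276 peaks were at lncRNA genes (191 genes), 20 at antisense RNA genes, 17 at tRNA genes, 9 at snoRNA genes, 6 at microRNA precursors, 6 at small nuclear RNA (snRNA) genes and 2 at other noncoding RNA genes, by the nearest start. In the gene models used here the first, second and last of these groups and the precursors share the biotype ncRNA. The same rule on the strongest 9515 peaks of each replicate gave 272, 275 and 275 noncoding-only peaks. Between 205 and 215 of them were at lncRNA genes, 16 to 23 at antisense RNA genes, 17 to 21 at tRNA genes and 5 or 6 at snRNA genes. Of the 33 members in the strongest 10% of the IDR-thresholded list, 30 were at lncRNA genes, 2 at antisense RNA genes and 1 at a snoRNA gene. None of the 17 tRNA, 6 snRNA and 6 precursor peaks was among them. Of all members 12.0% were in the strongest 10%, and of lncRNA peaks 13.9%. Each of these small classes, taken alone, is too few to set apart from that.

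**Figure D1:**
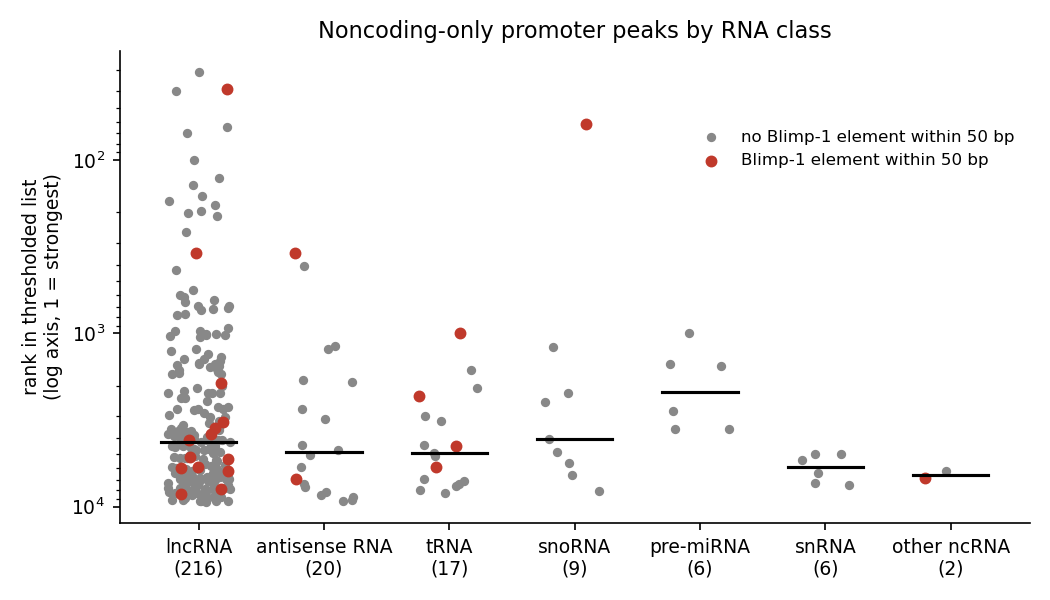
Rank of each of the 276 noncoding-only promoter peaks in the IDR-thresholded list (log axis, 1 is the strongest) by RNA class, with the number of peaks in parentheses. Each point is a peak, red points have the Blimp-1 element within 50 bp of the summit and lines are class medians. The 10 strongest are 9 lncRNA peaks and 1 snoRNA peak, and the strongest tRNA peak ranks 989.

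Noncoding-only promoter peaks ranged over the whole list in strength, from rank 31 to rank 9373. Their median list rank was 4440.5, against 4146 for protein-coding promoter peaks. In the strongest 10% stood 12.0% of them (33 of 276, 95% Wilson interval 8.64 to 16.3%), against 14.4% of protein-coding promoter peaks (13.1 to 15.8%), 8.09% of peaks at no start and 9.99% of all peaks. In the replicates the share was 13.6, 13.5 and 12.7% for noncoding-only peaks and 14.2, 13.8 and 13.6% for protein-coding promoter peaks. The difference was -0.624 ± 0.274 percentage points (SD, n = 3) and was below 0 in 3 of 3 replicates. It was -4.2 points with a start window of 250 bp, -0.122 with 1000 bp and -4.52 over all 30000 peaks of each replicate. An exact two-sided sign-flip permutation test gave p = 0.25, which is the smallest p that 3 replicates allow. All intervals on shares cover counting error only, and since peak lists hold no read counts, the depth behind them is unknown.

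Of the 276 peaks, 197 (71.4%, 65.8 to 76.4%) had a summit within 100 bp among the strongest 9515 peaks of all 3 replicates, against 68.9% of protein-coding promoter peaks and 69.9% of all peaks. Over the full lists of 30000 peaks a replicate, 255 members (92.4%) were matched in all 3, against 87.9% and 91.4%. All 6 precursor peaks, 158 of 216 lncRNA peaks, 12 of 17 tRNA peaks and 4 of 6 snRNA peaks were matched among the strongest. The counts were 11 of 20 for antisense RNA, 5 of 9 for snoRNA and 1 of 2 for other noncoding RNA peaks. Of the 33 members in the strongest 10%, 32 were matched, and the exception was the second CR44867 summit. That count has no share over all peaks of like strength beside it. The replicates were called against 1 control alignment, so the match between them is not free of noise from that control.

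Counted over genes, a lower share of noncoding than of protein-coding genes had a summit. Of 2904 noncoding genes whose starts all lay more than 500 bp from protein-coding starts, 284 (9.78%, 8.75 to 10.9%) had an IDR-thresholded summit within 500 bp, against 2857 of 13945 protein-coding genes (20.5%, 19.8 to 21.2%). In replicates 1, 2 and 3 the share was 9.61, 9.71 and 9.95% for noncoding and 19.7, 21.2 and 23.8% for protein-coding genes, so the groups did not overlap. The difference was -11.8 ± 1.88 percentage points (SD, n = 3; exact sign-flip p = 0.25, the smallest possible). A further 566 noncoding genes had a start within 500 bp of a protein-coding start and were not counted, and 91 of them (16.1%) had a summit. No protein-coding gene was left out in a like way. A gene counted if any of its annotated starts had a summit, and the number of starts per gene was not matched between the groups.

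The share differed between RNA classes. It was 12.1% for lncRNA genes (203 of 1683, 10.6 to 13.7%), 10.9% for tRNA genes (28 of 258, 7.62 to 15.2%), 6.67% for snoRNA genes (16 of 240, 4.14 to 10.6%), 5.92% for antisense RNA genes (19 of 321, 3.82 to 9.06%) and 3.46% for microRNA precursors (8 of 231, 1.77 to 6.68%), with 6.98% for the 43 other noncoding RNA genes (3 genes, 2.4 to 18.6%). The snRNA genes had the highest share, 24.1% (7 of 29, 12.2 to 42.1%), on few genes. No summit lay at the 99 ribosomal RNA genes counted, nor did any of the pooled list or of a replicate. Whether reads that map to several places were kept is not given in the sources used here. The count therefore cannot tell unbound genes from genes where no peak could be called. Its limit, a share of up to 3.03%, holds only if a peak could be called at each of them. Over replicates the shares were 12.0 ± 0.309% for lncRNA, 11.6 ± 1.4% for tRNA, 5.69 ± 1.05% for snoRNA, 4.98 ± 0.935% for antisense RNA and 5.19% for precursor genes (SD, n = 3 each). lncRNA and tRNA genes did not differ beyond that spread, nor did snoRNA, antisense RNA and precursor genes, while every replicate had both of the first classes above all 3 of the others.

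**Figure D2:**
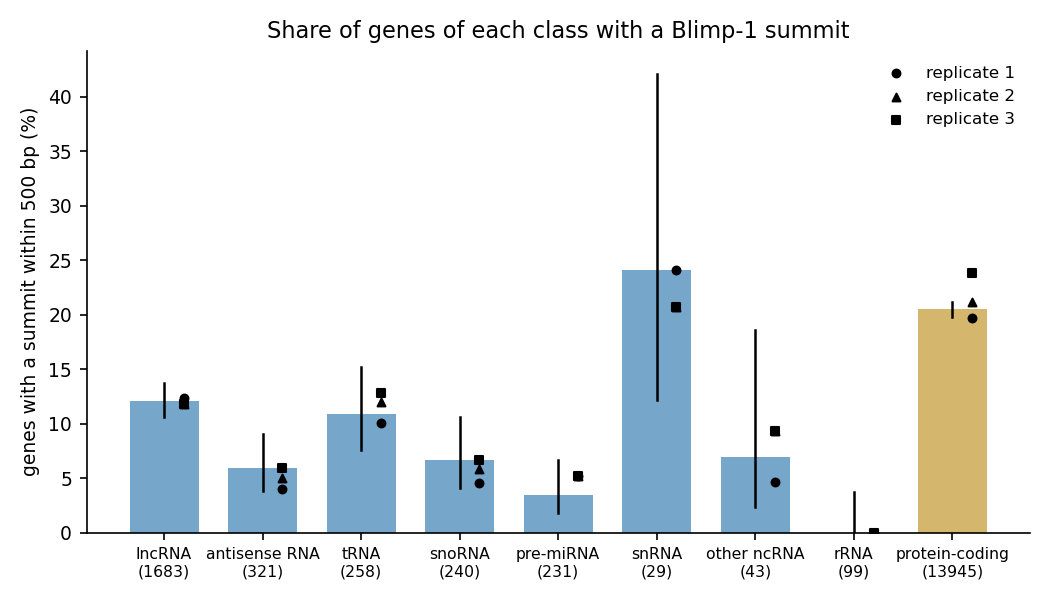
Share of the genes of each class with a Blimp-1 summit within 500 bp of a start, in percent, with the number of genes counted in parentheses. Bars are the IDR-thresholded list, lines its 95% Wilson intervals and points the strongest 9515 peaks of each replicate. lncRNA genes are at 12.1%, tRNA genes at 10.9%, precursors at 3.46% and protein-coding genes at 20.5%.

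Transfer RNA genes had many summits below the threshold, while their share of genes with a thresholded summit was close to that of lncRNA genes. Of 258 tRNA genes, 133 (51.6%) had a summit of the pooled list of 30000 peaks within 500 bp, against 28.7% of lncRNA genes and 33.1% of protein-coding genes. Over each replicate's own 30000 peaks the share was 38, 60.9 and 55.8% of tRNA genes and 27.4 to 30.2% of lncRNA genes, so the tRNA share varied between replicates and replicate 1 was nearest to lncRNA genes. Of the 123 pooled-list noncoding-only peaks nearest to a tRNA gene, 17 were past the IDR threshold (13.8%, 8.81 to 21%), against 216 of 604 at lncRNA genes (35.8%, 32.0 to 39.7%), 44.2% of protein-coding promoter peaks and 31.7% of all pooled-list peaks. For noncoding-only peaks together the share was 32.2% (276 of 856, 29.2 to 35.4%). Among each replicate's own 30000 peaks, those at tRNA genes reached the strongest 9515 in 17 of 89, 21 of 146 and 19 of 119 cases, or 19.1, 14.4 and 16.0%. For lncRNA genes it was 35, 36.0 and 36.2%. The difference of tRNA minus lncRNA was -19.3 ± 2.97 percentage points (SD, n = 3), below 0 in 3 of 3 replicates (exact sign-flip p = 0.25, the smallest possible). These shares have the weak peaks in their denominator, so they are lower where a class has more peaks below the threshold. This split by class was chosen after the values had been seen. tRNA genes occur as near-identical copies, and whether reads that map to several copies were kept is not given in the sources used here.

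**Figure D3:**
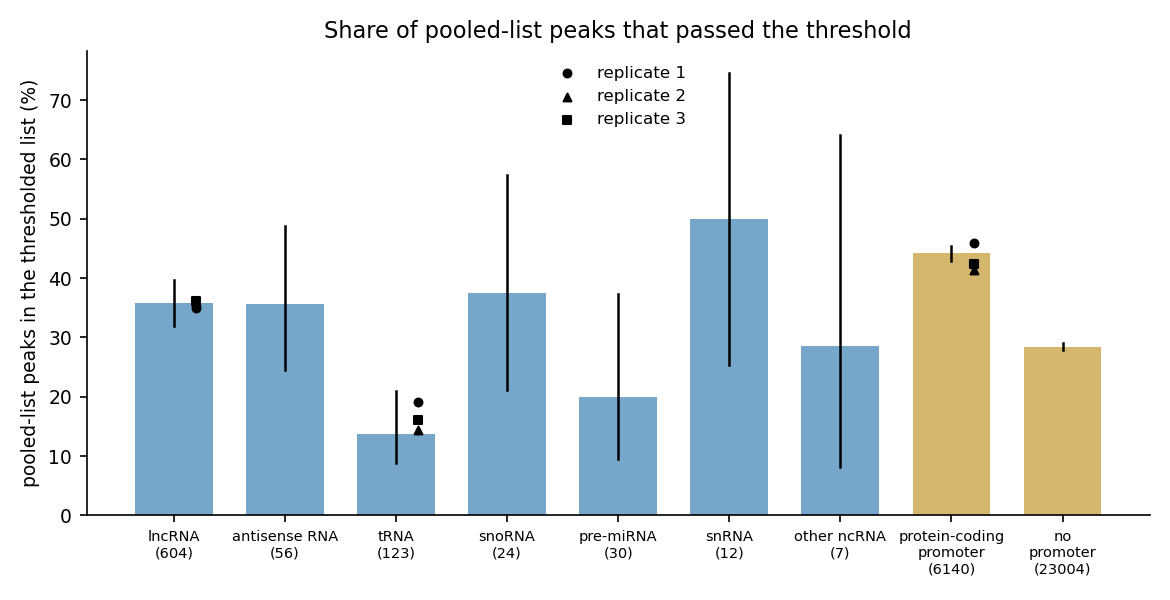
Share of pooled-list peaks that are in the IDR-thresholded list, in percent, by the class of the nearest noncoding start, with protein-coding promoter peaks and peaks at no start on the right (number of pooled-list peaks in parentheses). Lines are 95% Wilson intervals, and points, given for 3 of the groups, are the share of each replicate's 30000 peaks among its strongest 9515. tRNA peaks are at 13.8%, below lncRNA peaks at 35.8%, in the pooled list and in each replicate.

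The 17 tRNA members were at 17 genes, and 7 of the peaks had a second noncoding start within 500 bp. The strongest was 101 bp upstream of tRNA:Pro-AGG-1-5, in a pair with tRNA:Pro-AGG-1-6, at list rank 989 and replicate ranks 1244, 867 and 857. tRNA:Lys-CTT-1-1, inside the ecdysone receptor gene EcR, ranked 1617 in the list and 1205, 1753 and 2360 in the replicates. tRNA:Gln-TTG-2-1 ranked 2056 in the list. Summits lay upstream of the tRNA at 15 of 17. The element was at 4 of the 17 summits (23.5%), against 7.97% of all members and 6.31% of all peaks, and in no flank window. This small count was not tested. The 4 genes are tRNA:Pro-AGG-1-5, tRNA:Ser-CGA-1-3, tRNA:Ala-CGC-1-2 and tRNA:Arg-TCT-1-1, named after their values were seen. The B box, the internal promoter element of tRNA genes that RNA polymerase III factors bind, was searched as GTTCGANNC on both strands and was within 50 bp of none of the 17 summits, against 0.673% of all summits. The bodies of 9 of these 17 tRNA genes hold it, as do 160 of all 290 tRNA genes (55.2%), and with most summits upstream of the gene the window seldom reaches the gene body. Counted as clusters with starts within 1000 bp, 20 of 163 tRNA clusters (12.3%, 8.09 to 18.2%) had a summit.

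Among the snRNA genes, the peaks were of middle or low rank. The 6 peaks ranked between 4947 and 7550, and their windows had a median GC content of 49.0%, against 35.6% over all members. They were at U5:63BC, U6:96Ac, 7SKa, U1:95Ca, U1:21D and 7SKb, genes of spliceosomal RNAs and of the 7SK RNA that holds the elongation factor P-TEFb inactive. U5:63BC ranked 4947 in the list and 4651, 6513 and 5600 in the replicates. At U1:95Ca the summit was 1 bp from the start. None of the 6 held the element. Of 36 genes listed for RNA polymerase III or RNA processing, 7 had a summit within 500 bp, where U6:96Ab shares the peak of U6:96Ac, and 20 had one within 5000 bp. Over all 3470 noncoding genes, none left out, 10.8% had a summit within 500 bp and 46.2% within 5000 bp. The nearest summits to RNaseMRP:RNA, the 7SL genes CR42652 and CR32864, and RNaseP:RNA were 1154, 1725, 3796 and 4909 bp away.

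The snoRNA members after Psi18S-1347a were weaker. The peak next to the small Cajal body RNA gene scaRNA:MeU1b-A234 ranked 1195 in the list and 911, 1498 and 1538 in the replicates, with snoRNA:Or-ACA7 and snoRNA:Or-ACA6 also within 500 bp. snoRNA:abba-a, inside the gene tn, ranked 2216. The other noncoding RNA members, snoRNA:Me28S-C993 and snoRNA:Or-ACA9, ranked 6244 and 6847. Both have snoRNA names, but classes follow the biotype, which is ncRNA for them, so the snoRNA counts leave them out. Of 7 snoRNA host genes named Uhg that were found, Uhg4 and Uhg8 had a summit 127 and 240 bp upstream. Both summits were also within 500 bp of a protein-coding start, so neither is a member.

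The 6 precursor peaks were at mir-9378, mir-9377, mir-4962, mir-2491, mir-ban and mir-9a. The first 4 hairpins lie within protein-coding genes. mir-9378, inside CG17124, ranked 990 in the list and 644, 1100 and 1787 in the replicates. mir-9377, inside the mRNA decay factor gene Tis11, ranked 1493 in the list, and mir-4962, inside the kinase gene Tlk, ranked 1540. mir-ban is bantam, a microRNA known to promote growth and block cell death. Its summit was 402 bp downstream of the hairpin start, at list rank 3545 and replicate ranks 5570, 4373 and 2223. mir-9a, known to limit the number of sensory organ precursors, had a summit 36 bp upstream of the hairpin, at list rank 3582 and replicate ranks 2543, 3602 and 6514. The summit 298 bp upstream of mir-282 ranked 3261 in the list and 2344, 2819 and 4990 in the replicates. Its nearest annotated start is that of CR43626, and the 2 elements shown above lie within 50 bp of it.

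Most other listed microRNA genes had no summit at the hairpin. Over all 260 precursors, 12 (4.62%) had a summit within 500 bp. Of 11 genes listed as related to ecdysone or growth, mir-ban and mir-282 had one, a count too small to set apart from that share. The ecdysone-responsive let-7 cluster, mir-let7, mir-100 and mir-125, had its nearest summit 5508, 6108 and 5227 bp away, the same peak at list rank 395. The nearest summits to mir-8, mir-281-1, mir-14, mir-281-2, mir-34 and mir-252 were 739, 1679, 1853, 1897, 2756 and 10145 bp away. The summit nearest to mir-8, at list rank 9313, is a member at the lncRNA gene CR43650, which spans mir-8. The summit nearest to both mir-281 hairpins, at list rank 4688, is the member at the antisense RNA gene CR46194, which spans them. Of 11 found among microRNAs of epidermis, sense organs, muscle or neurons, mir-9a alone had a summit within 500 bp. Among the peaks nearest to these microRNAs, the strongest was the member at CR31044, at list rank 182 and replicate ranks 277, 124 and 142, which lies 1138 bp upstream of mir-279, a microRNA known to suppress a class of olfactory neurons. mir-996, mir-276a, mir-7, mir-124, mir-1, mir-263b, mir-184, mir-276b and mir-31a had their nearest summit between 1074 and 12528 bp away. As annotated, CR31044 runs over the hairpins of mir-279 and mir-996 on their strand. A distance from a hairpin does not say how far the promoter of its primary transcript is.

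Among well-known long noncoding RNAs, Hsromega, the heat-shock inducible nuclear RNA, had 2 member summits. The stronger was 129 bp downstream of its start, at list rank 1489 and replicate ranks 1608, 1165 and 1807, and the weaker ranked 5228 in the list and 3483, 6785 and 13570 in the replicates. The dosage compensation RNAs roX1 and roX2 had their nearest summit 3585 and 1413 bp away. In the Hox cluster, bxd, iab8 and the antisense RNA PS4 had theirs 605, 1007 and 6677 bp away. None of these 5 genes is a member.

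The antisense RNA members were led by CR45952, antisense within CG11309, at list rank 341 and replicate ranks 437, 248 and 394. Its summit was 457 bp upstream of the start and carried the element. CR44429, antisense within gce, a juvenile hormone receptor gene, ranked 408 in the list and 394, 509 and 376 in the replicates, and its summit was 534 bp from the nearest gce start. CR45908 ranked 1184 in the list. These 3 were recovered in every replicate, while 9 of the 20 antisense RNA peaks were not matched among the strongest peaks of all 3.

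Summits of noncoding-only peaks were spread more widely around the annotated start than those of protein-coding promoter peaks. The median distance was 207 bp, against 152 bp, and 19.6% lay over 400 bp away, against 9.37%. Upstream of the start lay 56.5% of them, against 73.4%. In replicates 1, 2 and 3 the median distance was 234, 217 and 204 bp for noncoding-only peaks and 160, 147 and 144 bp for protein-coding promoter peaks, a difference of 68 ± 7.21 bp (SD, n = 3; exact sign-flip p = 0.25). The upstream share was 54.0, 58.2 and 56.4% for noncoding-only peaks and 72.9, 73.1 and 73.9% for protein-coding promoter peaks, a difference of -17.1 ± 2.04 percentage points (SD, n = 3; exact sign-flip p = 0.25, the smallest possible). Neither measure overlapped between the groups. By class, 113 of 216 lncRNA, 17 of 20 antisense RNA, 15 of 17 tRNA, 5 of 9 snoRNA, 3 of 6 precursor and 1 of 6 snRNA summits were upstream. In bins of 100 bp, each bin held 5.8 to 17.0% of noncoding-only and 2.07 to 26.3% of protein-coding promoter summits. The 500 bp of the rule bounds the distance, so it is a description only. Neither measure was set against summits spread evenly over that window or corrected for the number of starts per gene. A peak between a pair of starts was counted to the nearest one, and how exact the annotated lncRNA starts are was not tested.

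**Figure D4:**
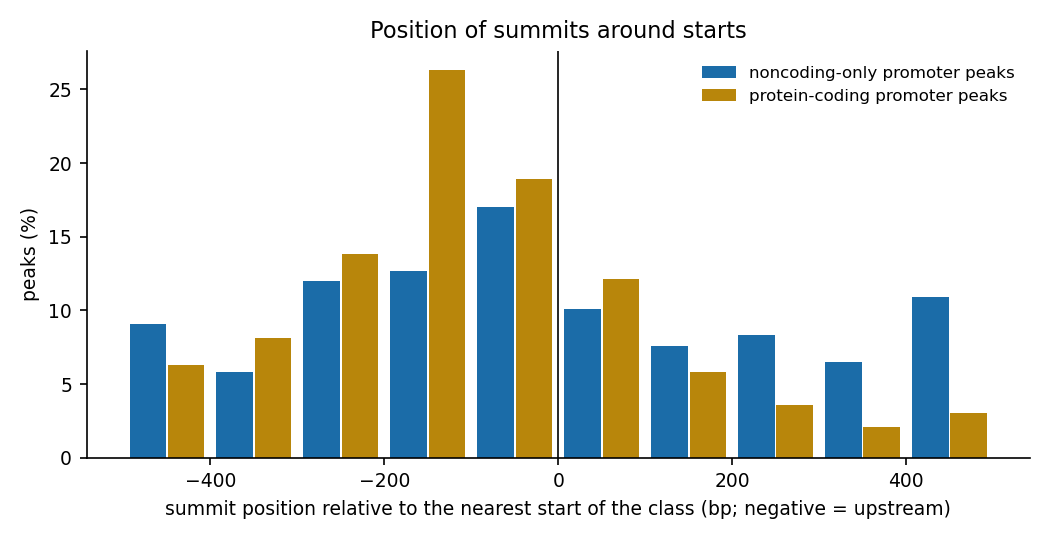
Position of the summit relative to the nearest start, in bp (negative is upstream), as a percent of the 276 noncoding-only promoter peaks and of the 2711 protein-coding promoter peaks, in bins of 100 bp. Protein-coding promoter summits peak at 100 to 200 bp upstream with 26.3%, where noncoding-only summits have 12.7%, and 10.9% of noncoding-only against 3.06% of protein-coding promoter summits lie 400 to 500 bp downstream.

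At the edge of the rule, the members just inside the limit were at CR44326, CR46108 and CR45945, with summits 500, 492 and 490 bp from the start and list ranks of 5100, 1937 and 6732. Just outside it were summits 506, 507 and 508 bp from CR44363, CR34044 and the antisense RNA CR44176, with list ranks of 583, 4107 and 6203.

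The Blimp-1 element stood at a higher share of noncoding-only summits than of their flanks and of protein-coding promoter summits in each replicate. It stood within 50 bp of 22 of 276 noncoding-only summits (7.97%, 5.32 to 11.8%) and in 3 windows of the same length centred 500 bp to the right (1.09%, 0.37 to 3.15%). At protein-coding promoter peaks the shares were 4.61% (3.88 to 5.47%) at summits and 1.22% in flanks, and over all peaks they were 6.31% and 0.956%. The interval of the noncoding-only summits includes the share over all peaks, and the share at peaks of no start was 6.94%. In replicates 1, 2 and 3 the noncoding-only shares were 9.19, 8.0 and 6.91% at summits and 1.47, 1.45 and 1.09% in flanks, and the protein-coding summit shares were 5.32, 4.14 and 3.7%. Summit minus flank was 6.69 ± 0.96 percentage points, and noncoding-only minus protein-coding summits was 3.65 ± 0.382 points (SD, n = 3 each). Over all 30000 peaks of each replicate these were 3.57 and 1.15 points, and with a start window of 1000 bp the second was 1.88 points. Both differences were above 0 in 3 of 3 replicates, with an exact sign-flip p = 0.25 for each, the smallest possible. Of the 22 members with the element, 14 were at lncRNA, 4 at tRNA, 2 at antisense RNA, 1 at snoRNA and 1 at other noncoding RNA genes.

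**Figure D5:**
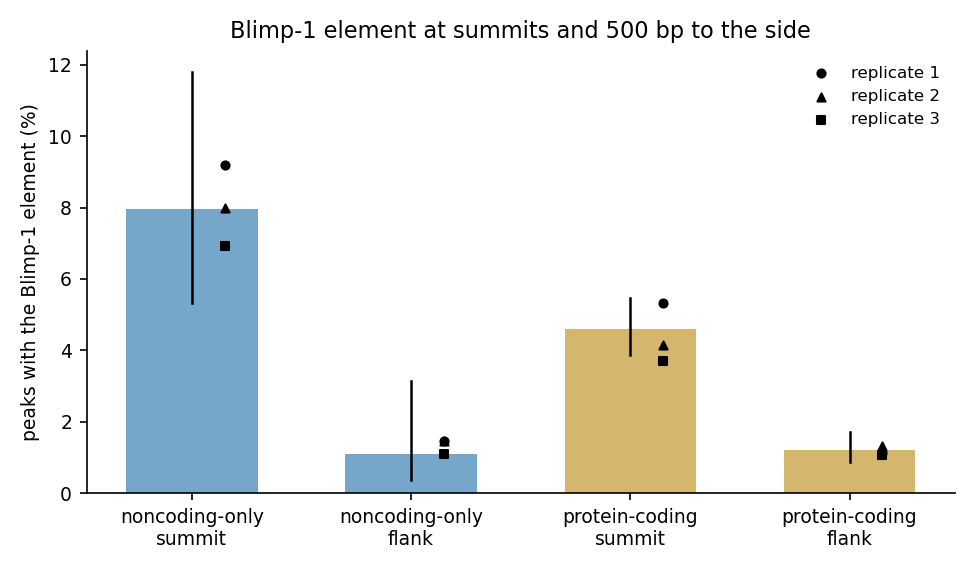
Share of peaks with the Blimp-1 element within 50 bp of the summit and in a window of equal length centred 500 bp to the right (flank), in percent. Bars are the IDR-thresholded list, lines 95% Wilson intervals and points the strongest 9515 peaks of each replicate. Noncoding-only summits are at 7.97% and their flanks at 1.09%, and protein-coding promoter summits are at 4.61%.

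A pair of words of housekeeping promoters was seen at no noncoding-only summit, a count too low to set these peaks apart from all peaks. TATCGATA, the core of the element bound by DREF, a factor of housekeeping promoters, was at none of the 276 noncoding-only summits, which allows a share of up to 1.09%, and at 43 of 2711 protein-coding promoter summits (1.59%). GGTCACAC, the core of the word bound by M1BP at such promoters, was at none of the 276 and at 33 protein-coding promoter summits (1.22%). Both were at 0 at noncoding-only summits in each replicate as well, against 1.43, 1.8 and 2.11% (TATCGATA) and 1.08, 1.34 and 1.46% (GGTCACAC) of protein-coding promoter summits. Over all peaks they stood at 0.578% and 0.494%, below the limit of 1.09%, and most of those hits were at protein-coding promoter peaks. TATAAA was at 16.7% of noncoding-only and 19.6% of protein-coding promoter summits, GAGAG at 13.0 and 13.1%, and the homeodomain word TTAATTA at 5.43 and 5.53%, so these 3 words had like shares in both groups. The words were searched on both strands, and a match describes the sequence and not binding by that factor.

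Most noncoding-only promoter peaks were at starts outside protein-coding gene bodies, though with a protein-coding start in the neighbourhood. The nearest noncoding start was outside any protein-coding gene for 175 of 276 (63.4%), antisense within one for 70 (25.4%), on the same strand within one for 30 (10.9%) and within genes on both strands for 1. The same split over all noncoding starts is not given here, so it is a description of the members only. Of the summits, 37.3% lay within a protein-coding gene, against 53.6% of protein-coding promoter summits and 64.6% of all summits. The median distance to the nearest protein-coding start was 3277 bp, against 3940 bp for peaks at no start, and 37 members (13.4%) had one within 1000 bp, 182 (65.9%) within 5000 bp and 237 (85.9%) within 10000 bp. A distance over 500 bp was set by the rule. The peaks were spread over arms 2L (61), 2R (58), 3L (66), 3R (53) and X (38), with none on chromosome 4. Nearly all peaks of the whole list lie on these arms too, so that absence does not set the members apart. Members had a higher share than all peaks on 2L (22.1 against 18.0%), 2R and, slightly, 3L. Their share was lower on 3R (19.2 against 23.4%) and X (13.8 against 18.0%). These differences were not tested. Noncoding-only peaks had a median width of 362 bp and a median GC content within 50 bp of the summit of 35.6%. For protein-coding promoter peaks these were 399 bp and 34.7%.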

How the data were processed

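The deposited notes name dm6 as the build of the alignments and list 1 control alignment for the calls of every replicate, and the labels give sonication to 200 to 800 bp. Which aligner and caller were used, and the threshold on the IDR, is not given in the sources used here. The authors deposited 1 peak list of 30000 peaks per replicate, a pooled list of 30000 and the IDR-thresholded list of 9515, which equals the strongest 9515 pooled peaks. Strength is the signal value per peak in the authors' deposited lists, whose scale is not given, and it was used to rank peaks within a list. Starts came from Ensembl release 115 on the same assembly, without pseudogenes and transposable elements, with the hairpin start for microRNAs. Sequence came from RefSeq. Coordinates are 1-based. Replicates were compared through their strongest 9515 peaks, with summits within 100 bp matched. Noncoding genes with a start within 500 bp of a protein-coding start were left out of class shares, as were unplaced sequences. Differences over the 3 replicates were tested by an exact two-sided sign-flip permutation test, and shares have 95% Wilson intervals. Peaks are not replicates, so no test was run over them. Each peak was given to the gene with the nearest noncoding start. Summits within 1 called region count as separate peaks, and the intervals treat them as independent.

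The genes named are the 10 strongest members, the 3 strongest of each class, members with the element among the 20 strongest, the 3 on each side of the limit, and the listed genes by distance, where most of the snRNA list is given as counts. A few others are named as loci with several summits or as neighbours. The members and lists were chosen with earlier results of these data known. The listed names (mir-263a, Hoxp and Uhg6) had no match in the annotation. Class assignment and the motif search were tested on simulated peaks and sequences. Alternatives covered the start window, matching distance, motif window, strength, gene denominators and leaving out each replicate. Python 3.11.15, pandas 2.3.3, numpy 2.4.6, scipy 1.17.1 and matplotlib 3.10.9 were used.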

Additional observations from a re-analysis of the deposited data

How the results depend on the processing

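Of 71 values under alternatives, 36 moved beyond the error of the main value. The 3 differences over replicates that were recomputed (strongest 10%, element at summit minus flank, element at noncoding-only minus protein-coding summits) kept their sign, but their p cannot pass a threshold with 3 replicates and shows no stability. Their values ranged from -4.52 to -0.122, from 3.57 to 7.13 and from 1.15 to 3.87 points. The differences in gene share, tRNA minus lncRNA share, distance and upstream share were not recomputed under alternatives. Narrowing the start window to 250 bp gave 182 noncoding-only peaks, 8.24% of them in the strongest 10%, a median distance of 128 bp and gene shares of 6.78% (ncRNA genes other than precursors), 6.69% (tRNA), 2.06% (precursors) and 2.72% (snoRNA). Widening it to 1000 bp gave 419 peaks, 12.6%, 420 bp, an element share of 6.68% and gene shares of 17.8, 24.6, 7.61 and 13.6% in the same order, and raised the share of pooled-list tRNA peaks past the threshold to 20.7%, an alternative chosen after seeing the data. In the upper 4757 peaks of the list there were 150 peaks, 97.3% matched in all 3 replicates, with a median distance of 238 bp and gene shares of 6.25% (ncRNA), 5.04% (tRNA) and 4.17% (snoRNA). Leaving out noncoding genes that overlap a protein-coding gene left 166 peaks. The share matched in all replicates was 55.8% at 50 bp, 92.4% over the full lists and 76.8 to 81.2% without 1 replicate. The strongest 25% of the list held 30.1% of the members. The element share was 5.07% within 25 bp, 9.42% within 100 bp and 5.43% for AGTGAAAG alone. Over all genes of a class the shares were 11.9% (ncRNA), 12.4% (tRNA) and 4.62% (precursors), and over tRNA clusters 12.3%. No paired analysis was possible because there is 1 group. Depth is unknown, and 3 replicates cannot give a p below 0.25. The lists hold no control signal and no expression, so whether these RNAs are made or change was not measured.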
